A study of Mus musculus with 14 samples.

Results

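The effect of carbenoxolone (cbx) on gene expression was compared between the superficial and the deep layers of the mouse superior colliculus, using all 14 libraries of the series. A gene counted as layer dependent when the difference between cbx and saline was not the same in both layers. By this rule 61 of 20330 tested genes were found, out of 55359 gene IDs in the files. The libraries came from ICR/CD-1 mice at postnatal day 6 whose eyes had been injected between postnatal days 0 and 1 with saline or with 50 mM cbx, in a volume of 0.3 to 0.5 µL. There were 3 saline and 4 cbx libraries of each layer, each made from the microdissected tissue of 3 brains, and the labels name no transgene or mutation. Bulk tissue holds all cell types of a layer with whatever covering membrane the dissection kept, so fewer cells of a type and less RNA per cell cannot be told apart.

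The superior colliculus is a midbrain structure whose superficial layers receive the axons of the retina, while its deep layers receive other senses, touch among them. Before eye opening, spontaneous waves of activity run across the retina and reach the superficial colliculus. Carbenoxolone blocks gap junctions, the channels that connexins form between neighbouring cells, and the labels give the abolition of retinal waves as the purpose of the injection. It also inhibits hydroxysteroid dehydrogenases that interconvert active and inactive glucocorticoids. Asking whether the difference depends on the layer sets the retinal target against tissue from the same structure that is not its main target.

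For each pool, the superficial library was paired with the deep library of the same number and treatment. The difference of their log2 CPM values is called the layer gap of that pool. The interaction is the difference between the gaps of cbx and saline pools as the fit estimates it, on the log2 scale. A positive value means that a gene stood higher after cbx in the superficial than in the deep layer, relative to saline. The interaction was tested with edgeR's quasi-likelihood test with the pool as a block and Benjamini-Hochberg adjustment over all 20330 genes. Of these, 0.300% were called at an adjusted p under 0.05, with 55 positive (0.271% of genes) and 6 negative (0.0295%). With each library's trends in transcript length and GC content taken out, the split was 96 positive and 28 negative.

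The number of calls depended strongly on how the pairs entered the model. Without the block, edgeR called 0 genes, with 1699 at an unadjusted p under 0.05, and limma on the 7 gaps also called 0, with 2000 at an unadjusted p under 0.05. Taking the pool as a random effect gave 5 calls and the DESeq2 Wald test 180. Leaving out saline pool 1 gave 40 calls, saline pool 2 or saline pool 3 gave 5 each, cbx pool 3 gave 18 and cbx pool 4 gave 922. Of the 61 genes, 29, 5 and 5 kept their call without saline pools 1, 2 and 3, and 51, 38, 17 and 61 without cbx pools 1 to 4. Agt and Islr alone among the 61 kept an adjusted p under 0.05 with each of the 7 pools left out in turn. All 61 kept their direction and an unadjusted p under 0.05 in each of the 7 fits with a pool left out. The number at an unadjusted p under 0.05 was 59 without the block, 53 with the pool as a random effect and 59 with limma on the gaps. With 3 against 4 gaps, the smallest two-sided p that an exact permutation test can give is 0.0571, so single genes were described by whether their gaps overlapped. The gaps of the cbx pools lay wholly above those of the saline pools in 6.45% of all tested genes and wholly below in 4.66%. They did not overlap in any of the 61 called genes, which the test had chosen for this contrast.

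Total counts ranged from 32004952 to 48776827 per library. The layer labels were checked on known markers. Gfap, an astrocyte filament gene of the collicular surface, was at 366 to 538 CPM in superficial and at 4.90 to 17.6 CPM in deep libraries. Pou4f1, a transcription factor gene, was at 38.4 to 50.1 CPM in superficial and 109 to 126 CPM in deep libraries. Neuron genes listed for a layer did not all stand higher in it. Otx2, in the same deep collicular list as Pou4f1, had a mean of 195 CPM in saline superficial and 62.2 CPM in saline deep libraries. The summed levels of the superficial and deep collicular neuron lists, given below, ran against the list names in each pool. Pools also differed in sex. Saline pool 1 read as male, with Xist at 0.572 and 1.94 CPM and Ddx3y at 69.5 and 70.8 CPM in its libraries. Cbx pool 4 read as female, with a Ddx3y level of 0 and Xist at 759 and 1127 CPM. These 2 pools, each of a single sex and opposite to each other, are called the pools of one sex below. Without these 2 pools 233 genes were called, 52 of the 61 among them. In the superficial libraries left, Ddx3y was at 37.0 and 45.3 CPM in saline pools 2 and 3. It was at 16.0, 38.6 and 17.7 CPM in cbx pools 1 to 3. Leaving out the pools of one sex thus did not wholly even out the sexes between treatments.

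**Figure D1:**
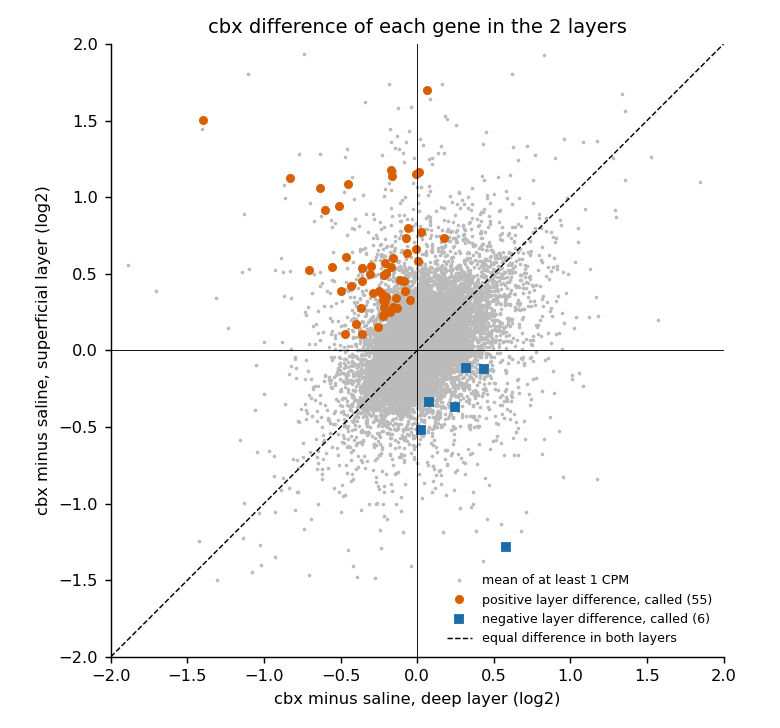
Each point is a gene with a mean of at least 1 CPM, placed by its log2 difference between cbx and saline in the deep (x axis) and the superficial layer (y axis), from the fit with 4 group means; 4 genes lie beyond the axes. The 55 called genes with a positive interaction (circles) lie above the line of equal difference and the 6 with a negative one (squares) below it.

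The 55 positive genes had a median difference between cbx and saline of 0.50 in the superficial and of -0.21 in the deep layer, both on the log2 scale. In the superficial layer all 55 estimates were above 0. In the deep layer 50 were below 0 and 5 above it. The 55 genes were chosen for a superficial above a deep difference in these same libraries. That choice favours such medians and signs, which are therefore description and no separate result. Their superficial difference was the larger in absolute size in 45 of them. The interaction of the 61 genes had a median absolute value of 0.67, and 15 reached 2-fold. Their mean levels ran from 2.22 to 242 CPM with a median of 34.4 CPM, against 11.2 CPM over all tested genes. In saline pools, 42 of the 55 stood higher in the superficial than in the deep layer, which is read from libraries that also enter the interaction. The last gene inside the threshold was Tyrobp (interaction 0.70, adjusted p = 0.0496 in edgeR's test), and the first outside was Apod, a lipid carrier gene (1.20, adjusted p = 0.0519).

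Genes of microglia, the resident immune cells of the brain, formed the list with the most calls. Of 18 genes in the microglia and macrophage list 5 were called, all positive. C1qa and C1qc encode chains of the first complement component, and Laptm5 is a lysosomal membrane gene. Csf1r encodes the receptor that keeps microglia alive, and Tyrobp a signalling adaptor. All 18 had a positive interaction, with a median of 0.47 against -0.000194 over all tested genes. At an unadjusted p under 0.05, 14 of the 18 were positive and 0 negative, where 6.94% and 5.14% of all genes were. The gaps did not overlap in 14 of 18, against 6.45% of all genes.

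C1qa (ENSMUSG00000036887, chromosome 4) was at 27.2, 23.2 and 26.8 CPM in the saline superficial libraries 1 to 3 and at 43.6, 38.8, 41.5 and 36.1 CPM in the cbx superficial libraries 1 to 4. In the deep layer it was at 42.1, 38.1 and 39.5 CPM after saline and at 38.3, 35.7, 39.7 and 38.5 CPM after cbx. The superficial groups did not overlap, while the deep groups did. The layer gap was -0.63 ± 0.08 (SD, n = 3) in saline and 0.07 ± 0.12 (SD, n = 4) in cbx pools. The interaction was 0.70 (SE 0.098, edgeR adjusted p = 0.00364), beside a cbx difference of 0.64 (SE 0.081) at the surface and -0.07 (SE 0.079) below it. Without saline pool 2 its adjusted p was 0.0525. In each saline pool C1qa thus stood lower in the superficial than in the deep layer, while the gaps of the cbx pools lay on both sides of 0.

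C1qc (ENSMUSG00000036896), a neighbour of C1qa, also had higher gaps in cbx than in saline pools. The gaps of C1qc were -0.60, -0.54 and -0.44 in saline and 0.32, 0.04, 0.24 and 0.11 in cbx pools. Its interaction was 0.71 (SE 0.10, edgeR adjusted p = 0.00526), beside differences of 0.49 (SE 0.092) at the surface and -0.22 (SE 0.090) below it, with an adjusted p of 0.0525 without saline pool 2. Laptm5 had an interaction of 0.55 (SE 0.090) and Csf1r of 0.49 (SE 0.083), each with a superficial difference above 0 and a deep difference below 0. The third C1q chain gene, C1qb, was not called (0.47, SE 0.13, edgeR adjusted p = 0.125). The adjusted p rose above 0.05 for Laptm5 without saline pool 2 (0.0580) or 3 (0.133), and for Csf1r without saline pool 2 (0.150), saline pool 3 (0.129) or cbx pool 3 (0.0668). Tyrobp kept an adjusted p under 0.05 in 2 of the 7 fits with a pool left out.

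The promoters of C1qc and Laptm5 are shown because these genes moved together and belong to cells whose gene programme is known to need the transcription factor PU.1, which binds purine-rich sites such as GAGGAAG. Each run covers the 250 bases before the RefSeq start (GRCm38.p6), 5′ to 3′ along the gene, at chr4:136892915-136893164 on the minus strand and chr4:130913066-130913315 on the plus strand. Capitals mark the letters GAGGAAG or, on the other strand, CTTCCTC.
C1qc: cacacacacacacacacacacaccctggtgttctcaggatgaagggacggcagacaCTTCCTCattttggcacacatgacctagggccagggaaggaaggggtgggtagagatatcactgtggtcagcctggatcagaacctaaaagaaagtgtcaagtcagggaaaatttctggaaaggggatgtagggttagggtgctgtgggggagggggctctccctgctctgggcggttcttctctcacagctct
Laptm5: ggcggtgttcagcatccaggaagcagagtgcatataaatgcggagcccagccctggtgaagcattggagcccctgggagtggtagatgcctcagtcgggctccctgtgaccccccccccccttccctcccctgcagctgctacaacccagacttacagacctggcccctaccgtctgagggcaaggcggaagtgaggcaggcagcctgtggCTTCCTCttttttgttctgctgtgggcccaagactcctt
Each holds 1 match, on the other strand. Of 32851 promoter windows of this length in the RefSeq table, 10.6% hold at least 1 match, so a match is not particular to these genes. The table held 2 of the 5 called microglial genes.

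**Figure D2:**
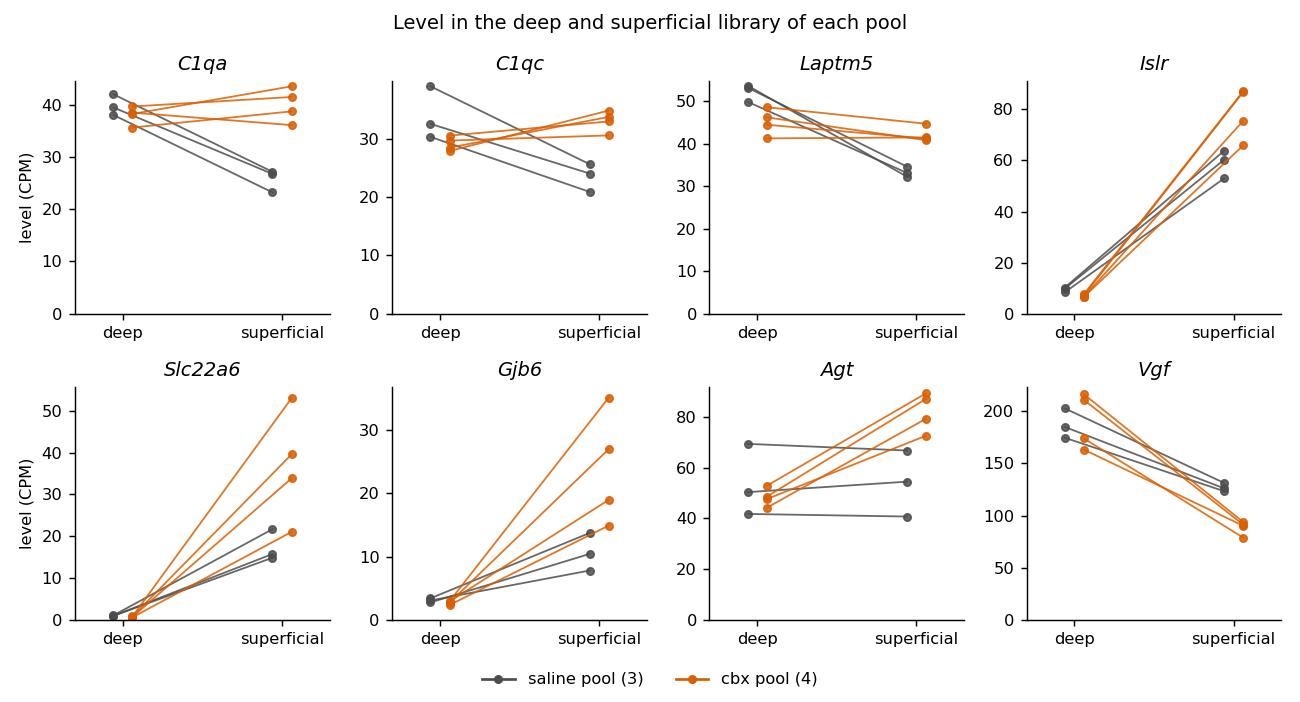
The level in CPM (y axis) of 8 called genes in the deep and superficial library of each pool, with a line joining the libraries of a pool. For C1qa the lines of the 3 saline pools fall from deep to superficial while those of the cbx pools do not fall as a group, and for Vgf the cbx lines fall more steeply than the saline lines.

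The summed level of the microglia and macrophage list shows the same in every pool. It ran from 350 to 381 CPM in saline superficial and from 458 to 476 CPM in cbx superficial libraries, groups that did not overlap. Deep libraries ran from 568 to 608 CPM after saline and from 502 to 564 CPM after cbx, in the opposite order. The gap of the sum lay between -0.70 and -0.67 in saline and between -0.30 and -0.12 in cbx pools. The list's median interaction stayed between 0.41 and 0.50 in all alternatives run.

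Fibroblasts of the meninges, the membranes that cover the brain surface and adhere to the superficial colliculus, gave the largest median interaction among lists whose genes were mostly above 1 CPM. Of 30 genes tested, 4 were called, all positive: Islr and Dcn, secreted matrix proteins, Slc22a6, an organic anion transporter, and Fmod, a collagen-binding proteoglycan. All 30 had a positive interaction with a median of 0.99, which stayed between 0.85 and 1.08 in the alternatives run. At an unadjusted p under 0.05, 23 were positive and 0 negative, where 6.94% and 5.14% of all genes were. Gaps of the cbx pools lay wholly above the saline gaps in 17 of 30, against 6.45% of all genes.

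Islr (ENSMUSG00000037206) was at 63.7, 60.2 and 52.9 CPM in saline and at 75.5, 65.9, 86.8 and 87.1 CPM in cbx superficial libraries. In deep libraries it was at 10.2, 9.82 and 8.40 CPM after saline and 6.68, 6.61, 7.14 and 7.66 CPM after cbx. It therefore stood higher in each cbx library at the surface and lower in each cbx library in the deep layer. The gaps were 2.63 ± 0.02 (SD, n = 3) in saline and 3.47 ± 0.12 (SD, n = 4) in cbx pools, an interaction of 0.85 (SE 0.10, edgeR adjusted p = 0.000873), with an adjusted p of at most 0.0226 when any pool was left out.

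Slc22a6 (ENSMUSG00000024650) was at 21.7, 15.7 and 14.9 CPM in saline and 33.8, 21.0, 39.6 and 53.0 CPM in cbx superficial libraries, which overlapped. In deep libraries it was at 1.05, 0.937 and 0.937 CPM after saline and at 0.691, 0.601, 0.758 and 0.795 CPM after cbx, without overlap. Its interaction was 1.51 (SE 0.23, edgeR adjusted p = 0.00593), and its adjusted p was 0.0525 without saline pool 2 and 0.0814 without saline pool 3. Fmod had an interaction of 1.25 (SE 0.24, edgeR adjusted p = 0.0477) and Dcn of 0.81 (SE 0.15, adjusted p = 0.0238). Both lost the call when single pools were left out, with highest adjusted p values of 0.257 for Fmod without saline pool 2 and 0.188 for Dcn without saline pool 3.

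The summed meningeal level was 1371 to 2053 CPM in saline and 1908 to 4869 CPM in cbx superficial libraries, so that the groups overlapped. In deep libraries it was 385 to 465 CPM after saline and 339 to 406 CPM after cbx. The gap of the sum was 1.83 to 2.14 in saline pools and 2.49, 2.80, 3.22 and 3.62 in cbx pools 2, 1, 3 and 4. The summed level of the listed genes was highest in the superficial library of cbx pool 4. Of these genes, Gja1 is also in the astrocyte list and Cldn11 in the myelin list. The gap of the sum was larger in each cbx pool than in each saline pool, as were the gaps of the called positive genes, and its part in those results was not tested.

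Macrophages at the borders of the brain had a positive interaction in all 12 tested genes of their list, with a median of 0.92. Of these, 0 were called at an adjusted p under 0.05 by edgeR. At an unadjusted p under 0.05, 7 were positive and 0 negative, where 6.94% and 5.14% of all genes were. The median was 0.54 without saline pool 2. Lyve1, a hyaluronan receptor, was at 1.33 (SE 0.46, adjusted p = 0.267). Of 13 tested genes of neutrophils and monocytes, 2 had a mean of at least 1 CPM. The alarmin gene S100a9 had 4 to 28 counts in saline superficial and 44 to 118 counts in cbx superficial libraries, against 0 to 19 counts in the deep ones, and was not called (interaction 3.88, SE 1.08, edgeR adjusted p = 0.172, with overlapping gaps).

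**Figure D3:**
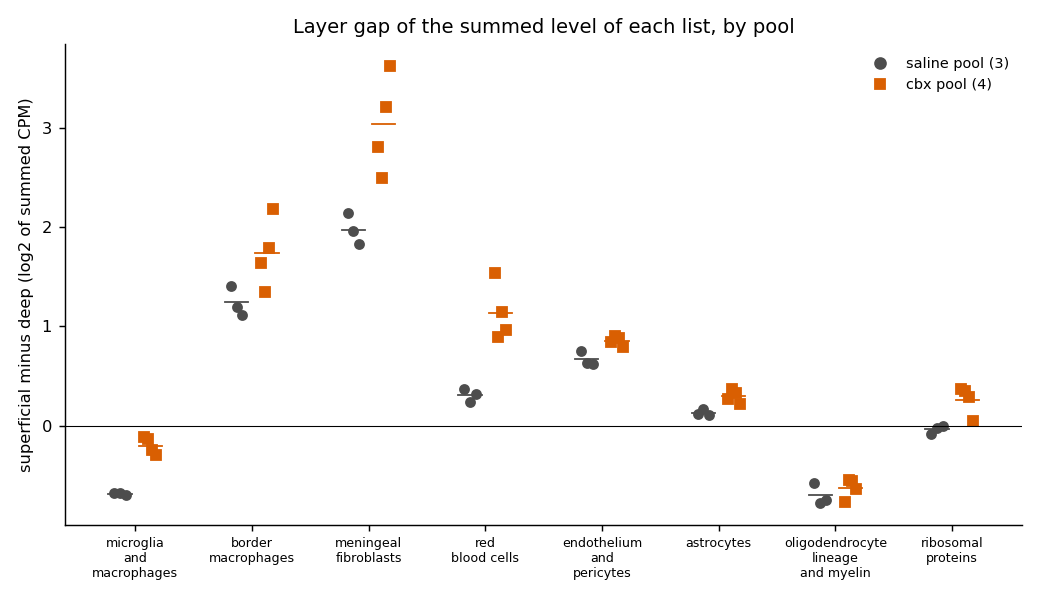
The layer gap (y axis, log2 of the summed CPM in the superficial over that in the deep library) of 8 gene lists, with 1 symbol for each saline pool (circles) or cbx pool (squares) and a line at the group mean. The cbx pools lie above the saline pools for microglial, meningeal, red blood cell, endothelial and pericyte, astrocyte and ribosomal genes. The groups overlap for border macrophages and myelin genes.

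Among astrocyte genes 4 of 21 were called, all positive: Agt, which encodes angiotensinogen, the filament gene Vim, and the connexins Gjb2 and Gjb6. The median interaction of the list was 0.16, and 0.11 without cbx pool 2. Its median difference between cbx and saline was -0.0020 in the superficial and -0.16 in the deep layer. At an unadjusted p under 0.05, 8 genes were positive and 0 negative, where 6.94% and 5.14% of all genes were. Vim and both connexins are also expressed by meningeal cells.

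Agt (ENSMUSG00000031980) had the smallest p of all genes. In superficial libraries it was at 66.7, 54.5 and 40.7 CPM after saline and 87.1, 79.3, 89.3 and 72.6 CPM after cbx. In deep libraries it was at 69.4, 50.3 and 41.7 CPM after saline and 48.5, 44.2, 52.8 and 47.6 CPM after cbx, where the groups overlapped. Levels of the saline pools varied, but both layers of a pool varied together, and the gap was 0.01 ± 0.09 (SD, n = 3). In cbx pools the gap was 0.76 ± 0.11 (SD, n = 4). The interaction was 0.76 (SE 0.089, edgeR adjusted p = 0.000873), with an adjusted p of at most 0.0226 when any pool was left out, while the fit without the block gave 0.432.

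Connexins form the channels that cbx blocks. Of 14 tested connexin and pannexin genes 2 were called, Gjb6 and Gjb2, which lie side by side on chromosome 14. Over all genes 0.271% were called positive. In this list 4 genes were positive and 0 negative at an unadjusted p under 0.05, where 6.94% and 5.14% of all genes were. Gaps of the cbx pools lay wholly above the saline gaps in 4 of 14, against 6.45% of all genes. Gjb6 was at 13.7, 10.4 and 7.80 CPM in saline and 19.0, 14.9, 27.0 and 35.1 CPM in cbx superficial libraries, and at 2.35 to 3.40 CPM in all deep libraries. The superficial groups did not overlap, and the interaction was 1.31 (SE 0.23, edgeR adjusted p = 0.0223). Gjb2 had an interaction of 1.12 (SE 0.21, adjusted p = 0.0247). Gja1, the main connexin of astrocytes, was not called (0.38, SE 0.085, adjusted p = 0.0655), although its gaps of 0.05 to 0.26 in saline and 0.44 to 0.67 in cbx pools did not overlap. Gjb6 had an adjusted p of 0.127 without saline pool 2, 0.161 without saline pool 3 and 0.0820 without cbx pool 3, and Gjb2 of 0.145, 0.0525, 0.188 and 0.0788 without saline pools 1, 2 and 3 and cbx pool 3.

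Hba-a1, a haemoglobin chain gene, was the only called gene of 7 tested genes of red blood cells. It was at 120.5, 76.7 and 119 CPM in saline and 216, 132, 188 and 196 CPM in cbx superficial libraries, without overlap. Deep libraries ran from 64.8 to 97.6 CPM after saline and from 69.7 to 100.2 CPM after cbx. The interaction was 0.85 (SE 0.12, edgeR adjusted p = 0.00593), and the adjusted p was 0.0558 without saline pool 2 and 0.0814 without saline pool 3. Reads of Hba-a1 may be shared with its near-identical copy, so its count is uncertain. Of the 7 genes, 3 were positive and 0 negative at an unadjusted p under 0.05, where 6.94% and 5.14% of all genes were. The summed level of the list had gaps of 0.24 to 0.37 in saline and 0.90 to 1.54 in cbx pools. Like the gap of the microglial sum, this gap was higher in each cbx pool than in each saline pool. The part of blood in the other results was not tested.

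Vtn, a plasma and pericyte protein gene, was the only called gene of 22 in the endothelial and pericyte list. Its interaction was 0.78 (SE 0.11, edgeR adjusted p = 0.00593), and its adjusted p was 0.0558 without saline pool 2 and 0.0814 without saline pool 3. The list median was 0.097, and it was 0.020 without cbx pool 2, 0.064 without saline pool 3 and 0.044 without the length and GC trends. Of the 22 genes, 3 were positive and 1 negative at an unadjusted p under 0.05, where 6.94% and 5.14% of all genes were. The pericyte receptor Pdgfrb was at 0.34 (SE 0.11, adjusted p = 0.201).

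Of the 55 positive genes 38 belonged to none of the lists. H19, an imprinted non-coding RNA of mesenchymal tissue, was at 81.4, 65.3 and 66.9 CPM in saline and 129.8, 80.9, 161 and 259.9 CPM in cbx superficial libraries. In deep libraries it was at 3.06 to 5.92 CPM. The superficial groups overlapped, but the gaps of 3.89 to 4.21 in saline and 4.70 to 5.44 in cbx pools did not. The interaction was 1.09 (SE 0.14, edgeR adjusted p = 0.00364), with an adjusted p of 0.0503 without saline pool 3.

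Wnt6, a secreted signalling protein gene, had the largest interaction of the called genes, 2.91 (SE 0.54, edgeR adjusted p = 0.0303). It was at 5.0, 2.71 and 2.98 CPM in saline and 9.76, 4.01, 10.4 and 16.2 CPM in cbx superficial libraries. The deep libraries held 12, 19 and 14 counts after saline and 16, 4, 3 and 3 counts after cbx, so that few reads set this value. Its adjusted p was 0.244 without saline pool 2, 0.188 without saline pool 3, 0.0528 without cbx pool 2 and 0.0878 without cbx pool 3.

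The other large positive interactions were those of Nupr1, a stress-response gene (1.95, SE 0.36), Aldh1a1, a retinoic acid synthesis enzyme (1.64, SE 0.27), Thbd, the thrombin receptor of vessel walls (1.54, SE 0.28), Lepr, the leptin receptor (1.48, SE 0.23), Foxd1, a transcription factor gene (1.41, SE 0.27), and Mfap4, of elastic fibres (1.24, SE 0.24). Their levels in saline superficial libraries ran from 3.29 CPM for Nupr1 to 17.2 CPM for Aldh1a1. The deep libraries held 11 to 37 counts of Nupr1, 23 to 59 of Aldh1a1 and 26 to 74 of Foxd1. They held 31 to 67 counts of Mfap4, 34 to 79 of Lepr and 73 to 105 of Thbd. Few reads thus set the deep side of these values. In superficial libraries Aldh1a1 was at 17.2, 13.6 and 11.0 CPM after saline and at 21.3, 20.5, 30.0 and 43.7 CPM after cbx, without overlap. Each of these 6 lost the call in 2 or more of the 7 fits with a pool left out.

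Further positive genes encode proteins of the extracellular matrix and its assembly. Bgn, a small proteoglycan, was at 0.88 (SE 0.14), Mxra8 at 0.81 (SE 0.14), Loxl2, a collagen cross-linking enzyme, at 1.08 (SE 0.23), Fkbp10 at 0.57 (SE 0.11) and Serpinh1, a collagen chaperone, at 0.46 (SE 0.085). Others act in lysosomes and in antigen handling. B2m, the invariant chain of class I molecules, had gaps of -0.11, 0.04 and -0.01 in saline and 0.46, 0.55, 0.55 and 0.47 in cbx pools, an interaction of 0.53 (SE 0.088, edgeR adjusted p = 0.00944). The protease gene Ctsh was at 0.67 (SE 0.13), the lysosomal membrane genes Lamp2 and Laptm4a at 0.44 (SE 0.079) and 0.45 (SE 0.078), Unc93b1, which escorts Toll-like receptors, at 0.56 (SE 0.12), and Fcgrt, the neonatal Fc receptor, at 0.67 (SE 0.12). These genes were grouped here after their values were seen, and no list of theirs was tested. B2m had an adjusted p of 0.0792, 0.0558, 0.0853 and 0.0550 without saline pools 1, 2 and 3 and cbx pool 3.

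Txnip, an inhibitor of thioredoxin that responds to glucose, differed in both layers. It was at 80.2, 81.6 and 78.0 CPM in saline and 86.8, 88.1, 98.1 and 114.6 CPM in cbx superficial libraries, and at 38.7, 33.8 and 40.9 CPM in saline and 25.0, 26.4, 32.2 and 33.7 CPM in cbx deep libraries. All 4 cbx libraries were thus higher at the surface and all 4 lower in the deep layer. The interaction was 0.64 (SE 0.093, edgeR adjusted p = 0.00513), with an adjusted p of 0.0814 without saline pool 3. Ccnd3, a cyclin, was among the 5 positive genes with a deep difference above 0 (0.17, SE 0.12), beside a superficial difference of 0.73 (SE 0.12).

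Further positive genes, with interactions from 0.41 to 1.07, were Trp53i11, Gpc3, S100a10, Itm2a, Rnase4, Ucp2, Igfbp4, Lgals3bp, Selenop, Mxi1, Cpxm1, Ppic, Atp1b3, Pmp22, Selenos and Sfrp1. Selenos and Cpxm1 were among the positive genes whose difference was larger in the deep layer, -0.36 (SE 0.073) and -0.47 (SE 0.14), against 0.11 (SE 0.073) and 0.11 (SE 0.14) at the surface.

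Cbln2, a secreted synapse organiser of neurons, was the called gene of 17 in the list of superficial collicular neurons. It stood lower in the superficial than in the deep layer in all pools. Its levels were 27.5, 23.5 and 31.1 CPM in saline and 41.5, 38.4, 39.6 and 30.4 CPM in cbx superficial libraries, which overlapped. Deep libraries ran from 99.7 to 128 CPM. The interaction was 0.53 (SE 0.11, edgeR adjusted p = 0.0445), and without saline pools 1 and 2 and cbx pools 1, 2 and 3 the adjusted p was 0.225, 0.303, 0.0613, 0.153 and 0.149. The list's median was 0.022, and it was below 0 without cbx pool 2, without cbx pool 3 and without the pools of one sex. The list's name does not mark a layer here, since its summed level was lower in the superficial library of each pool. The gaps of the sum were -0.56 to -0.36 in saline and -0.47 to -0.40 in cbx pools. The sum of the deep collicular list was higher in the superficial library of each pool, with gaps of 0.071 to 0.19 in saline and 0.12 to 0.21 in cbx pools.

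The 6 negative genes were Vgf, Kcnh7, Hook1, Frmd5, Spred3 and Gm37478. Vgf (ENSMUSG00000037428), a neuropeptide precursor induced by activity and neurotrophins, was at 123, 126 and 131 CPM in saline and 91.4, 93.8, 90.2 and 78.8 CPM in cbx superficial libraries, without overlap. In deep libraries it was at 175, 185 and 203 CPM after saline and 211, 216, 163 and 174 CPM after cbx, with overlap. The gaps were -0.56 ± 0.06 (SD, n = 3) and -1.10 ± 0.17 (SD, n = 4), an interaction of -0.54 (SE 0.090, edgeR adjusted p = 0.00953). It was the only called gene of 32 activity-regulated genes, whose median was -0.043 and -0.013 without saline pool 3. Of these 32 genes, 1 was positive and 4 were negative at an unadjusted p under 0.05, where 6.94% and 5.14% of all genes were. The adjusted p of Vgf was 0.0672, 0.112 and 0.0814 without saline pools 1, 2 and 3.

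Kcnh7, a voltage-gated potassium channel gene, was at 28.9, 27.9 and 27.2 CPM in saline and 15.0, 21.4, 26.0 and 23.9 CPM in cbx superficial libraries, and at 27.9, 25.4 and 22.2 CPM in saline and 26.9, 31.0, 34.6 and 26.7 CPM in cbx deep libraries. The surface groups did not overlap, and the interaction was -0.64 (SE 0.13, edgeR adjusted p = 0.0477). The adjusted p was above 0.05 in each fit with a pool left out other than that without cbx pool 4, from 0.0532 without cbx pool 1 to 0.260 without saline pool 3. Spred3, an inhibitor of the Ras pathway, had gaps of 0.07, 0.02 and -0.02 in saline and -0.45, -0.36, -0.41 and -0.33 in cbx pools, with an interaction of -0.41 (SE 0.084). Hook1, a cargo adaptor of microtubule motors, was at -0.43 (SE 0.086) and Frmd5, a membrane-linked scaffold gene, at -0.55 (SE 0.12). For Hook1 and Frmd5 the deep difference was above 0, 0.32 (SE 0.098) and 0.43 (SE 0.096), and the superficial one -0.11 (SE 0.097) and -0.12 (SE 0.093). Gm37478, of unknown function, was at -1.93 (SE 0.39).

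Next in the negative direction came 6 genes that did not pass: Hgf, a growth factor gene (-1.06), the phosphatase gene Dusp4 (-0.66), the tight junction gene Cgn (-0.67), Fam184b (-0.50), Gm16183 (-1.74) and AI593442 (-0.34). They were taken by smallest p among genes averaging at least 1 CPM whose gaps did not overlap. The lack of overlap is therefore how they were chosen and no result. Adjusted p values from edgeR ran from 0.0625 to 0.0798.

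Lists of neuronal signalling genes had medians at or below 0. Of 39 voltage-gated channel genes 1 was called, Kcnh7, and 16 were negative and 0 positive at an unadjusted p under 0.05, where 5.14% of all genes were negative. Gaps of the cbx pools lay wholly below the saline gaps in 8 of 39, against 4.66% of all genes. Kcnq5 and Kcna4, potassium channels, were at -0.50 (SE 0.12) and -0.55 (SE 0.14), and Scn1a, a sodium channel, at -0.40 (SE 0.11), none of them called. The list's median was -0.20, and it was -0.12 without the length and GC trends and -0.13 without cbx pool 1. Of 34 cadherins and protocadherins 0 were called by edgeR, with 7 negative and 1 positive at an unadjusted p under 0.05 and a median of -0.13. This median was -0.015 without the length and GC trends and -0.033 without cbx pool 1.

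The counts at an unadjusted p under 0.05 in this paragraph stand beside 6.94% positive and 5.14% negative of all tested genes. Glutamate receptor genes had a median of -0.066 with 0 of 25 called, 0 positive and 4 negative at an unadjusted p under 0.05. Their median was -0.010 without the length and GC trends, -0.013 without cbx pool 1 and -0.037 without saline pool 3. GABA and glycine genes had a median of -0.041 with 0 of 31 called and 4 at an unadjusted p under 0.05, all negative, and ranged from -0.074 to -0.027 over the alternatives run. Gad2, an enzyme of GABA synthesis, was at -0.29 (SE 0.081) and not called. Presynaptic genes were at -0.082, with 0 of 30 called, 1 positive and 3 negative at an unadjusted p under 0.05, and at -0.031 without saline pool 3 and -0.052 without cbx pool 1. Of 22 Eph receptors and ephrins, which guide retinal axons to their places in the colliculus, 0 were called, 3 were positive and 2 negative at an unadjusted p under 0.05, and the median was -0.014, but 0.052 without cbx pool 1 and 0.012 without the pools of one sex. Of 48 semaphorin, plexin, slit and netrin genes 0 were called. At an unadjusted p under 0.05, 3 were positive, near the share of all genes, and 0 negative. Gaps of the cbx pools lay wholly above the saline gaps in 3 and wholly below in 3, against 6.45% and 4.66% of all genes. The median was -0.052, which was -0.022 without cbx pool 1 and -0.12 without cbx pool 4.

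**Figure D4:**
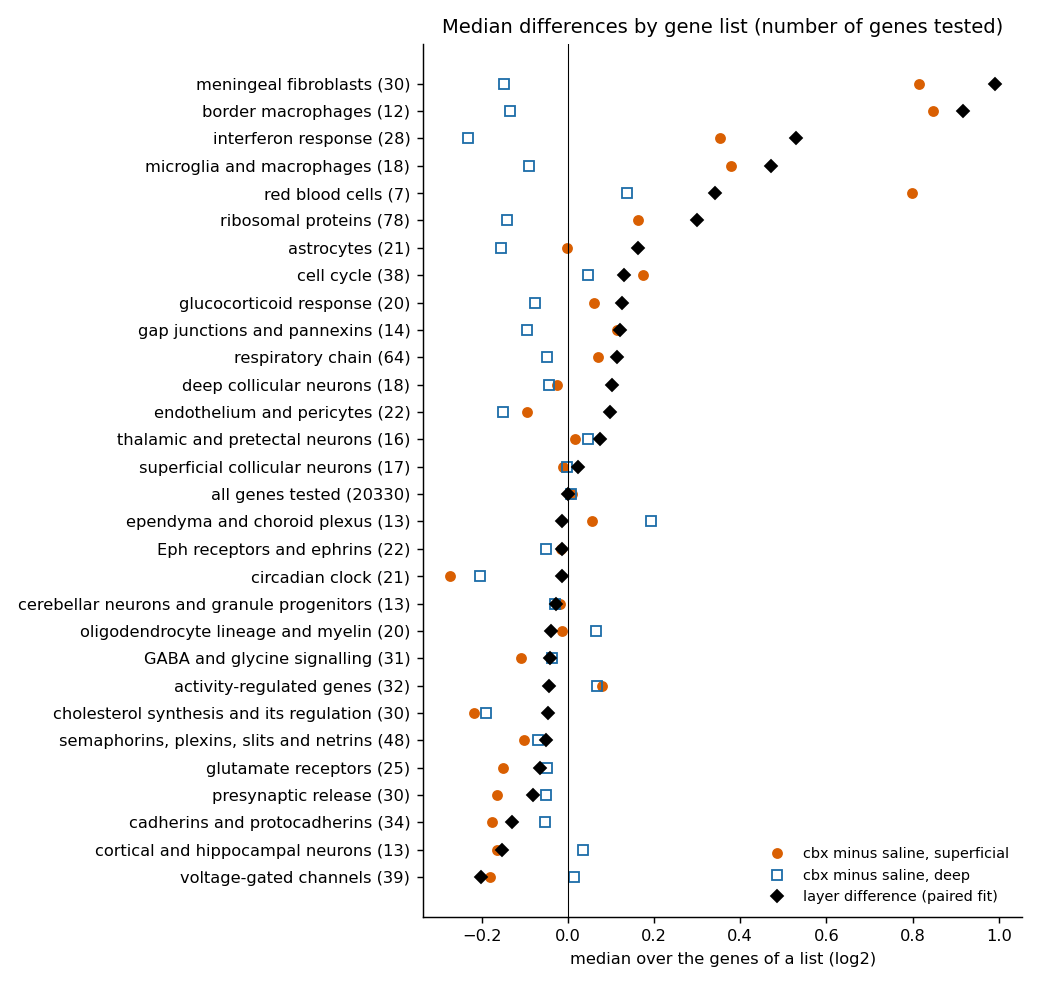
Median log2 difference between cbx and saline in the superficial layer (circles) and the deep layer (open squares), and median interaction (diamonds), over the tested genes of 29 lists and over all 20330 genes. Meningeal, border macrophage, interferon and microglial lists stand to the right, with superficial medians above 0 and deep medians below 0, and voltage-gated channels have the lowest median interaction.

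Of 78 tested ribosomal protein genes, 74 had a positive interaction at an unadjusted p under 0.05, against 6.94% of all genes, and 0 a negative one. Gaps of the cbx pools lay wholly above the saline gaps in 46 of 78, against 6.45% of all genes. The summed level overlapped between saline and cbx libraries in both layers. Its gap was 0.37, 0.35, 0.29 and 0.044 in cbx pools 1 to 4 and -0.085 to -0.0056 in saline pools. Rpl23a was the only called gene of the list (0.43, SE 0.082, edgeR adjusted p = 0.0249, and 0.0598 without the length and GC trends). Its reads may be shared with processed copies elsewhere in the genome. The median was 0.30, from 0.16 in the superficial and -0.14 in the deep layer, and 0.19 without the length and GC trends. Nuclear genes of the respiratory chain had a median of 0.11 over 64 genes, 0.00353 without these trends and 0.18 without cbx pool 4. Of the 61 genes, 55 kept their call without these trends.

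Interferon response genes had a median of 0.53 over 28 genes, of which 15 had a mean of at least 1 CPM. None was called by edgeR, and the median was 0.33 without the pools of one sex. At an unadjusted p under 0.05, 11 were positive and 1 negative, where 6.94% and 5.14% of all genes were. Ifitm3, an antiviral membrane gene, was at 0.66 (SE 0.18, adjusted p = 0.111). Cell cycle genes had a median of 0.13 with 0 of 38 called, 8 positive and 1 negative at an unadjusted p under 0.05, beside the same shares.

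The lists that follow had no called gene, and 6.94% of all tested genes were positive and 5.14% negative at an unadjusted p under 0.05. Of 30 genes of cholesterol synthesis and its regulation 0 were called by edgeR, and 4 were negative at an unadjusted p under 0.05. Insig1, which holds back sterol synthesis, was at 57.9 to 79.4 CPM in cbx and 123 to 136 CPM in saline superficial libraries, and at 72.9 to 87.8 CPM and 131 to 141 CPM in the deep ones. The groups were apart in both layers, with differences of -0.93 (SE 0.088) and -0.78 (SE 0.088), and the interaction was -0.15 (SE 0.089, edgeR adjusted p = 0.516). Circadian clock genes had medians of -0.27 in the superficial and -0.20 in the deep layer and of -0.014 for the interaction. Of 21 clock genes 0 were called, and 2 were positive and 0 negative at an unadjusted p under 0.05. Over the alternatives run the interaction median of the clock genes ranged from -0.053 to -0.0065. Of 20 glucocorticoid response genes 0 were called, and 4 were positive and 1 negative at an unadjusted p under 0.05. Their median was 0.13, and 0.044 without the pools of one sex. Pdk4, a target of that hormone that limits glucose oxidation, had a difference of -0.58 (SE 0.13) at the surface and of -1.15 (SE 0.13) below it (interaction 0.59, SE 0.15, edgeR adjusted p = 0.109). The list of deep collicular neurons, and lists of other cells and of regions that the dissection could have kept, also had no called gene. The medians were 0.10 for deep collicular, -0.029 for cerebellar, -0.15 for cortical and hippocampal and 0.074 for thalamic and pretectal neurons. The deep collicular median was 0.055, 0.044 and 0.051 without saline pool 1, saline pool 2 and cbx pool 1, and the thalamic one 0.012 without cbx pool 1 and 0.11 without cbx pool 4. The cortical median was -0.27 without saline pool 2, -0.065 without saline pool 3 and -0.33 without the pools of one sex. Myelin genes were at -0.040 and ependymal and choroid plexus genes at -0.013, and both medians, like the cerebellar one, changed sign when single pools were left out. A p above the threshold does not show that these genes responded alike in both layers.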

How the data were processed

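Read counts per Ensembl gene ID, 1 table per library, were deposited by the authors. Per the submitters' processing notes, the tools were STAR 2.7.9d, featureCounts, Subread 2.0.1, FastQC 0.11.9 and SAMtools 1.14. Both GRCm39 and mm10 are named there without a role. No source used here gives the annotation or the strand setting, and overlapping or antisense genes may share reads. Poly-A selected libraries were read as pairs of 150 bases, per the labels' protocols.

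Symbols matched 52083 of 55359 IDs. The model was fitted in R 4.3.3 with edgeR 4.0.16: filterByExpr by group, TMM factors, and a robust quasi-likelihood fit with 7 pools as a block, layer, and layer by treatment (5 residual degrees of freedom, median prior 14.4). The SE is the estimate divided by the root of F. Differences within a layer come from a fit of 4 group means and carry no test. CPM values use TMM factors, and gaps a prior count of 2.

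Replicate numbers in the titles pair the layers: deviations from group means of same-numbered libraries correlated at 0.182 to 0.394 in all 7 pairs over 15168 genes, and 14 of 14 libraries correlated best with their own number. Whether equal numbers mean the same brains, or pools separate litters, is not in the labels, so p-values measure only the spread between these pools. Between replicates, chi-square per gene was 7.35 to 48.6, and all libraries were kept as separate samples.

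The members and the 30 gene lists were chosen with earlier results of these data known, and some list genes were named there, so no list test was made. Named were the called genes, up to 12 per direction (filled from genes averaging 1 CPM or more whose gaps did not overlap), up to 4 genes per list, Insig1 and C1qa. C1qb and Apod were added after their values were seen. Alternatives used limma 3.58.1, DESeq2 1.42.0, other scalings and filters, and pools left out. Promoters came from RefSeq, and gene types, lengths and GC content from GENCODE M21 (99.6% of tested genes). Of the called genes, 1 is not reported here.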

Additional observations from a re-analysis of the deposited data

Results flagged for a closer look

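The 61 genes of the report are flagged together, since the test of the difference itself found their cbx effects to differ between the layers. In the 4 cbx pools, the layer gaps of the 61 genes and the gaps of the 30 list sums were also searched for a pool that stood apart, and 6 of these 91 groups of 4 had such a pool, where chance gives about 1 in 20. Laptm4a had a gap of 0.64 in cbx pool 4 against 0.79 to 0.81 in the other pools. Dcn had a gap of 3.98 in cbx pool 3 against 3.46 to 3.55. Loxl2 had a gap of 2.85 in cbx pool 3 against 3.38 to 3.39. The summed level of superficial collicular neuron genes had a gap of -0.47 in cbx pool 1 against -0.41 to -0.40, and that of cortical and hippocampal neuron genes -0.68 in the same pool against -0.54 to -0.53. The summed level of respiratory chain genes had a gap of -0.14 in cbx pool 4 against 0.063 to 0.094.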

How the results depend on the processing

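The count of 61 genes was 65 with median-of-ratios size factors, 66 with limma-voom and the block, and 46 with a filter of 1 CPM in 3 libraries. It was 0 with no replicate block, 5 with the pool as a random effect, 440 with no low-count filter, 180 with the DESeq2 Wald test, 0 with limma on the pool gaps, 124 with length and GC trends taken out and 233 with the 2 pools of one sex left out. Leaving out 1 pool at a time gave 5 to 922. Positive calls numbered 305 and negative ones 135 with no filter, 152 and 28 with DESeq2, 156 and 77 with the pools of one sex left out, and 536 and 386 without cbx pool 4. Of the 61 genes, 60 kept their call with the other size factors, 61 with no filter and with DESeq2, 55 without the trends, 53 with limma-voom and the block, 46 with the stricter filter and 52 when the pools of one sex were dropped. All 61 kept their direction in the 17 alternatives. The cause of these differences in count was not tested. The prior degrees of freedom were 14.4 (median) in the paired edgeR fit and 1.46 in the fit on gaps. Few reads lay behind genes under 1 CPM, such as 11 of the 13 tested in the list of neutrophils and monocytes (median 3.26, and 1.92 without saline pool 2).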
